A study of Sus scrofa with 3 samples.

Results

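Small RNA libraries were made from liver of male pigs 90 days after birth, and the 2 mature strands of the miR-126 precursor, ssc-miR-126-3p and ssc-miR-126-5p, were followed across 3 breeds. Both were taken by name from 411 mature miRNA names in the deposited counts. Each breed had 1 library: the Enshi black pig, a domestic breed of China, the Chinese wild boar, and the Large White pig, which is a commercial breed of European origin. All 3 groups were untreated animals of the same sex and age as far as the labels say. The labels speak of 3 male pigs without saying whether that is in all or per breed, so a difference between libraries can include one between individual animals. There is no replicate check on any difference, no p-value was computed, and every 95% interval covers counting error only.

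miR-126 is the best known miRNA of endothelial cells, the cells that line blood vessels. In human and mouse it is processed from an intron of EGFL7, a gene for a protein secreted by endothelium. In the RefSeq gene table the span of pig MIR126 lay inside that of EGFL7, on sequence not assigned to a chromosome, and no coordinates are given because that table is of another genome build. In mouse and zebrafish, miR-126-3p keeps vessels intact by repressing SPRED1 and PIK3R2, brakes on signalling by vascular endothelial growth factor, and in human cells it represses the adhesion molecule VCAM1. miR-126-5p, long treated as a passenger strand, represses the Notch regulator DLK1 in mouse endothelium. In liver both strands are expected mainly from sinusoidal and vascular endothelium, while hepatocytes make most of the tissue's RNA and are marked by miR-122.

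Both arms had whole-number counts from a single precursor, so neither depended on how reads shared between names had been divided. miR-126-3p had 132651 reads in the Enshi black, 85884 in the wild boar and 50651 in the Large White library. miR-126-5p had 18625 reads in the Enshi black, 16709 in the wild boar and 6519 in the Large White library. Both arms were thus lowest in the Large White library, whose total was also the smallest, 7343033 reads against 7730934 in the Enshi black and 7824836 in the wild boar library. Totals differed far less than the miR-126 counts did.

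As a share of all miRNA reads, miR-126-3p took 1.72% in the Enshi black library (1.71 to 1.73, exact Clopper-Pearson interval), 1.10% in the wild boar (1.09 to 1.10) and 0.690% in the Large White library (0.684 to 0.696). It was the 13th most abundant of 311 detected miRNAs in the Enshi black library, the 16th of 307 in the wild boar library and the 21st of 304 in the Large White library. A rank within a library does not depend on scaling. Its neighbours in that order were miR-30a-5p and miR-125b in the Enshi black library, miR-199a-5p and let-7f in the wild boar library, and miR-19b and let-7i in the Large White library.

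miR-126-5p took 0.241% of the reads in the Enshi black library (0.237 to 0.244), 0.214% in the wild boar library (0.210 to 0.217) and 0.0888% in the Large White library (0.0866 to 0.0910). It ranked 46th in the Enshi black, 44th in the wild boar and 61st in the Large White library. The order of the libraries thus differed between the arms by rank: miR-126-3p stood highest in the Enshi black library, miR-126-5p in the wild boar library by 2 places. Next to it were miR-10a-5p and miR-125a in the Enshi black, miR-186 and miR-339 in the wild boar, and miR-181b and let-7e in the Large White library.

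To compare libraries, counts per 1000000 reads (CPM) were scaled by trimmed mean of M-values (TMM), which assumes that most miRNAs do not differ. The same counts are also given as CPM of the library total. Scaling matters here. miR-122 alone took 34.2% of the reads in the Enshi black, 39.5% in the wild boar and 41.4% in the Large White library. What it takes is not left for other miRNAs. With miR-122 left out of the totals, miR-126-3p in Enshi black over Large White was 2.22-fold, against 2.49 on library totals and 1.60 with TMM. In wild boar over Large White the same ratio was 1.54, against 1.59 and 1.14. What sets the scales apart was not tested. On the TMM scale miR-126-3p stood at 14279 CPM in the Enshi black, 10187 in the wild boar and 8930 in the Large White library. On library totals it stood at 17158 CPM in the Enshi black, 10976 in the wild boar and 6898 in the Large White library. miR-126-5p stood at 2005 TMM-scaled CPM in the Enshi black, 1982 in the wild boar and 1149 in the Large White library. Its library-total CPM were 2409 in the Enshi black, 2135 in the wild boar and 888 in the Large White library. On both scales the Large White library was lowest for both arms.

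**Figure D1:**
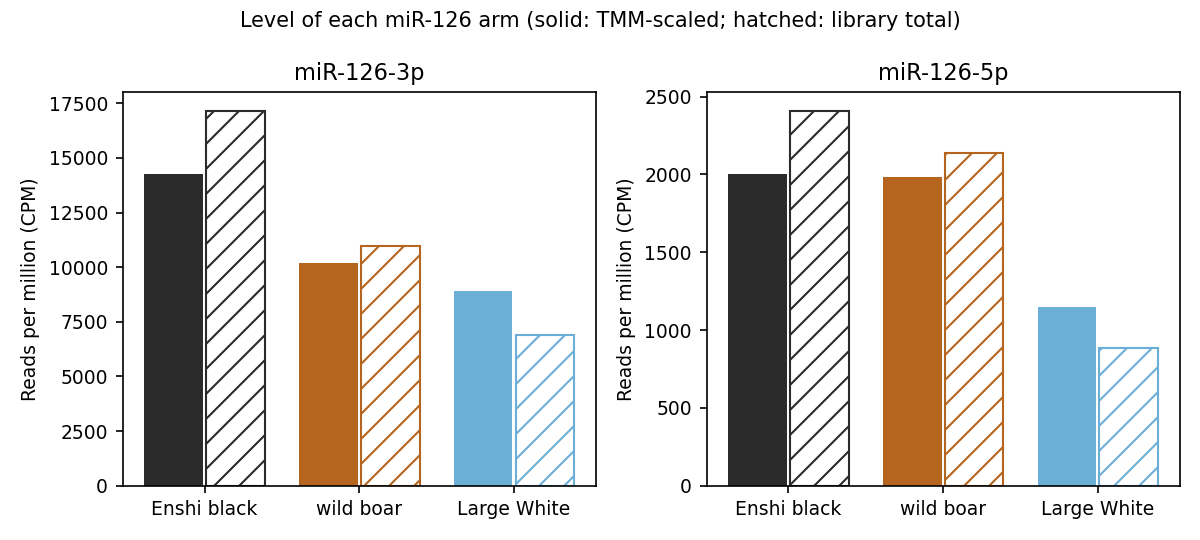
Level of miR-126-3p (left) and miR-126-5p (right) in reads per 1000000, 1 library per breed; solid bars are TMM-scaled CPM and hatched bars CPM of the library total. TMM-scaled, miR-126-3p is at 14279 in the Enshi black, 10187 in the wild boar and 8930 in the Large White library, while miR-126-5p is nearly level between the first pair (2005 and 1982) and at 1149 in the Large White library.

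In Enshi black liver, both arms were higher than in Large White liver, by less than 2-fold after TMM scaling. miR-126-3p was 1.60-fold higher in the Enshi black library (exact conditional-binomial interval 1.58 to 1.62) and miR-126-5p 1.74-fold higher (1.70 to 1.79). A miRNA was called in a pair when its ratio reached 2-fold and its interval did not hold 1, and neither arm was called. Of the 208 miRNAs with a mean of at least 10 CPM, 2.88% were called higher and 10.1% lower in this pair after TMM scaling. On library totals both arms passed, at 2.49-fold (2.46 to 2.51) and 2.71-fold (2.64 to 2.79), on a scale where 27.4% of all miRNAs were called higher and 2.88% lower.

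The 2 scales differ by 1 constant, so the place of an arm among all ratios is the same on both. miR-126-3p had the 26th and miR-126-5p the 16th highest ratio of Enshi black over Large White among 208 miRNAs. Over all miRNAs the median log2 ratio was −0.04 after TMM and 0.60 on library totals. Relative to that median, miR-126-3p was 0.72 and miR-126-5p 0.84 higher on the log2 scale, against an SD of 0.69 over all miRNAs.

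In wild boar liver, the arms parted. miR-126-5p was 1.72-fold higher than in Large White liver after TMM scaling (1.68 to 1.77), close to its ratio in the Enshi black library. miR-126-3p was 1.14-fold higher (1.13 to 1.15). Neither was past 2-fold, where 11.5% of miRNAs were higher and 13.5% lower in this pair. On library totals miR-126-5p was 2.41-fold higher (2.34 to 2.48) and past the threshold, as were 21.6% of all miRNAs (9.13% were lower), while miR-126-3p was 1.59-fold higher (1.57 to 1.61). Relative to the median miRNA, miR-126-5p was 0.80 and miR-126-3p 0.21 higher on the log2 scale, with an SD of 0.96 over all miRNAs. They had the 32nd and the 79th highest of the 208 ratios.

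Between the Enshi black and wild boar libraries it was the 3p arm that stood apart. miR-126-3p was 1.40-fold higher in the Enshi black library after TMM scaling (1.39 to 1.41), the 36th highest ratio. miR-126-5p had a ratio of 1.01, with an interval of 0.991 to 1.03 that held 1, and was 100th of 208. On library totals the ratios were 1.56 for miR-126-3p (1.55 to 1.58) and 1.13 for miR-126-5p (1.10 to 1.15). In this pair 6.25% of miRNAs were called higher and 6.25% lower after TMM, and 7.21% higher and 3.37% lower on library totals. Neither arm was among them on either scale.

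**Figure D2:**
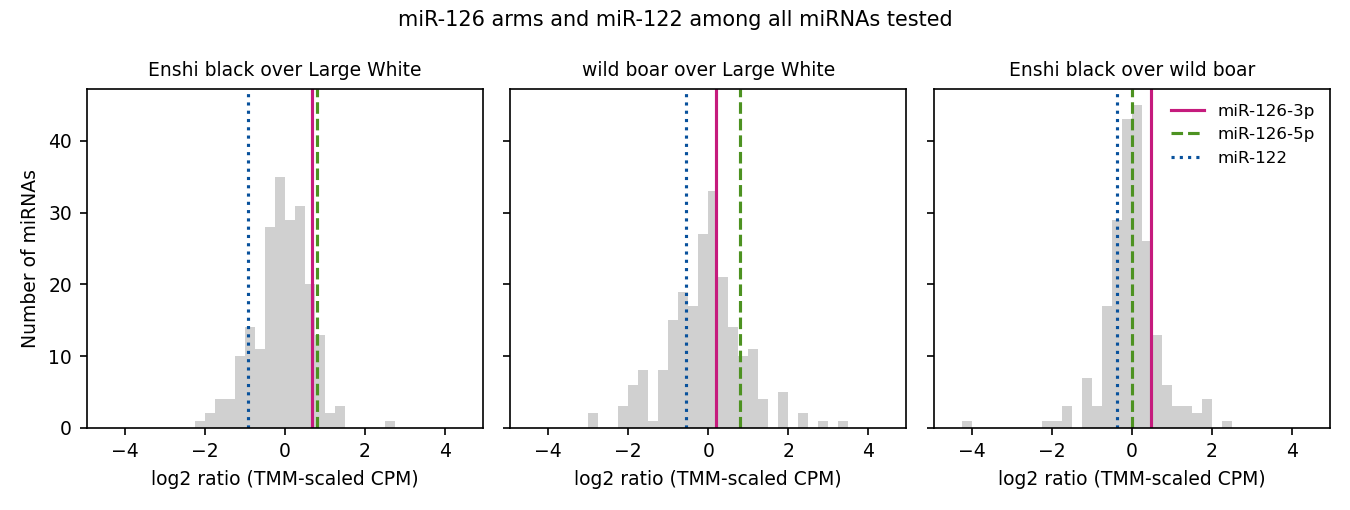
Number of miRNAs (vertical axis) by log2 ratio of TMM-scaled CPM for the 3 pairs of libraries, over 208 miRNAs; lines mark miR-126-3p (solid), miR-126-5p (dashed) and miR-122 (dotted). The arms lie together at 0.68 and 0.80 in Enshi black over Large White, and apart at 0.19 and 0.79 in wild boar over Large White.

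The share of each arm needs no scaling between libraries. Of the mir-126 reads, the 3p arm held 87.7% in the Enshi black library (87.5 to 87.9, exact Clopper-Pearson interval), 83.7% in the wild boar (83.5 to 83.9) and 88.6% in the Large White library (88.3 to 88.9). The rest, 12.3% in the Enshi black, 16.3% in the wild boar and 11.4% in the Large White library, belonged to the 5p arm. That is 7.12 reads of miR-126-3p for each read of miR-126-5p in the Enshi black, 5.14 in the wild boar and 7.77 in the Large White library. The 3p strand was thus the major one in each library, and its share was lowest in the wild boar.

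The number of 3p reads per 5p read in the wild boar library was 0.662 times that in the Large White library (log-scale 95% interval 0.642 to 0.682). In the Enshi black library it was 0.917 times that in the Large White library (0.890 to 0.945) and 1.39 times that in the wild boar library (1.35 to 1.42). Counting error is thus smaller than each of these differences, while the spread between animals of 1 breed was not measured.

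A shift of this size was common among miRNA precursors. The 3p share of mir-126 ranged over 4.88 percentage points across libraries, and 25 of the 62 precursors with both arms named and at least 100 reads in each library had a wider range. Near-identical precursors count separately here. Among the wider were mir-345-1 and mir-345-2, at 9.56 points each, and mir-199a-1 and mir-199a-2, at 6.97 and 6.95. Among the narrower were mir-676-1 and mir-676-2, at 0.20 each. The median range was 2.66 points. Shares near 0 or 100% can hardly move in points, and on the log2 scale of 3p over 5p reads the range was 0.60 for mir-126, against a median of 0.65, with 36 precursors wider. A small constant was added to the reads of each arm on that scale. A precursor with reads on a single arm thus gets a range from its read number alone, as did mir-4334 (2.42), mir-181d (0.65) and mir-194b (0.20). Just wider in points were mir-28, mir-30e and mir-423, at 4.93, 4.93 and 5.05 points, and just narrower were mir-145, mir-425 and mir-545, at 4.88, 4.33 and 3.63. The wild boar library had the lowest 3p share for 21 of the 62 precursors, mir-126 among them.

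**Figure D3:**
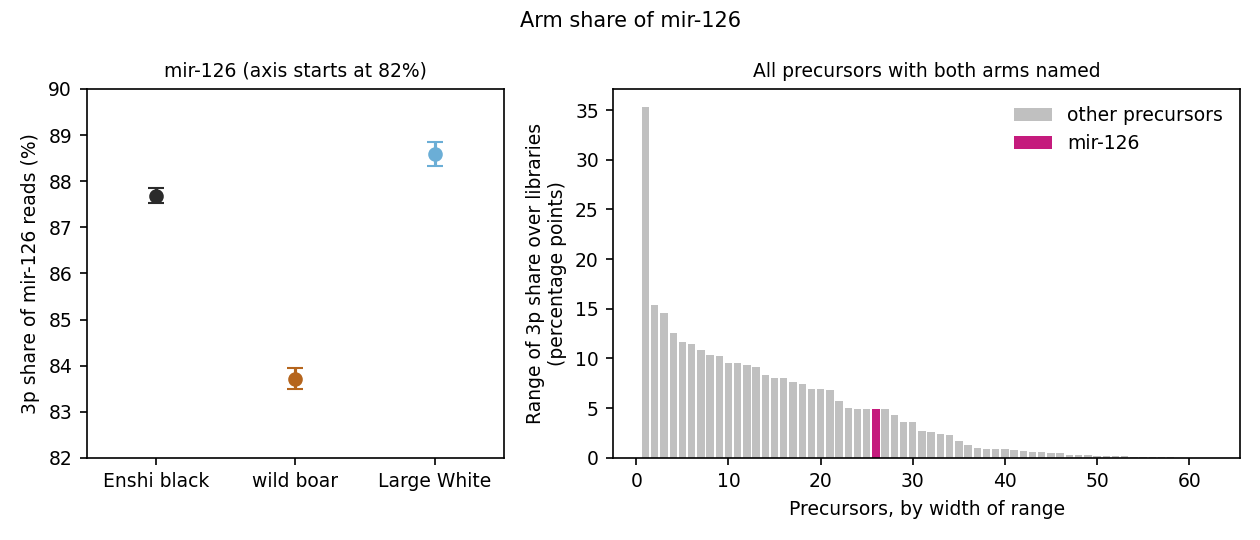
Left, the 3p share of mir-126 reads in percent by library, with exact 95% intervals for counting error, on an axis that starts at 82%. Right, the range of the 3p share over the 3 libraries in percentage points for 62 precursors in order of width; mir-126 at 4.88 points is the 26th widest.

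Set against miR-122, the miRNA of hepatocytes, the differences between breeds in miR-126 were wider, since miR-122 ran the other way. miR-122 had a TMM-scaled log2 ratio of −0.91 in Enshi black over Large White, −0.55 in wild boar over Large White and −0.36 in Enshi black over wild boar. For each 1000 reads of miR-122 there were 50.2 reads of miR-126-3p in the Enshi black, 27.8 in the wild boar and 16.7 in the Large White library. The corresponding reads of miR-126-5p were 7.04 in the Enshi black, 5.41 in the wild boar and 2.14 in the Large White library. These ratios within a library are the same under any scaling.

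Per miR-122 read, miR-126-3p was 3.01-fold higher in Enshi black than in Large White liver (log-scale 95% interval 2.98 to 3.04) and miR-126-5p 3.28-fold higher (3.19 to 3.38). In the wild boar library the ratios over Large White were 1.67 for miR-126-3p (1.65 to 1.69) and 2.52 for miR-126-5p (2.45 to 2.59). In the Enshi black over the wild boar library they were 1.81 for miR-126-3p (1.79 to 1.82) and 1.30 for miR-126-5p (1.28 to 1.33). Higher values per miR-122 read were widespread among miRNAs. Of 207 other than miR-122, 43.5% were called higher and 0.966% lower on this measure in Enshi black over Large White, 25.6% and 8.21% in wild boar over Large White, and 13.5% and 2.9% in Enshi black over wild boar. In bulk liver, fewer cells of a type and less of its RNA per cell cannot be told apart.

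The other hepatocyte markers had the same sign as miR-122 after TMM scaling. These were miR-192 and miR-194a, abundant liver miRNAs, miR-148a-3p, and the scarce miR-885-5p, and all 5 hepatocyte miRNAs had negative TMM-scaled log2 ratios in each pair. The summed hepatocyte list stood at 358078 TMM-scaled CPM in the Enshi black, 458584 in the wild boar and 677373 in the Large White library, with no marker at 0. On library totals its sum was 430279 CPM in the Enshi black, 494094 in the wild boar and 523196 in the Large White library, and miR-148a-3p had positive log2 ratios over Large White there (0.34 in Enshi black and 0.38 in wild boar), as did miR-194a in wild boar (0.01). Against the 4 hepatocyte miRNAs other than miR-122, miR-126-3p was 3.08-fold higher in Enshi black and 1.75-fold higher in wild boar liver, relative to Large White. Of these 4, miR-192 and miR-148a-3p hold reads shared with other names.

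Against markers of mural and stellate cells, the contractile and collagen-making cells beside the endothelium, miR-126-3p had its smallest ratios over Large White among the marker lists. For each 1000 reads of miR-143-3p, miR-145-5p, miR-199a-5p and miR-214 together there were 336 reads of miR-126-3p in the Enshi black, 299.5 in the wild boar and 283 in the Large White library. That was 1.19-fold higher in Enshi black than in Large White liver (1.17 to 1.20) and 1.06-fold higher in wild boar liver (1.05 to 1.07). For miR-126-5p the ratios over Large White were 1.30 in Enshi black (1.26 to 1.33) and 1.60 in wild boar liver (1.55 to 1.65). In Enshi black over wild boar, the ratios per mural read were 1.12 for miR-126-3p (1.11 to 1.13) and 0.810 for miR-126-5p (0.793 to 0.828). Per mural read miR-126-5p was thus higher in the wild boar library, unlike per miR-122 read. All 4 mural miRNAs had positive TMM-scaled log2 ratios over Large White, from 0.26 to 0.46 in the Enshi black and from 0.02 to 0.22 in the wild boar library. The other arms of these precursors, named after their values were seen, did not all have that sign. miR-199a-3p had a log2 ratio over Large White of 0.00 in the Enshi black and −0.11 in the wild boar library. It holds shared reads, as does miR-199a-5p of the main list. In the same order, miR-145-3p had −0.29 and −0.93, and miR-143-5p 0.24 and −0.14. With these arms added to the list, miR-126-3p per mural read was 1.25-fold higher in Enshi black (1.23 to 1.26) and 1.09-fold higher in wild boar liver (1.08 to 1.10), relative to Large White.

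Blood cell markers were summed as well. The leucocyte miRNAs miR-142-3p, miR-142-5p, miR-150 and miR-155-5p summed to 10708 TMM-scaled CPM in the Enshi black, 3582 in the wild boar and 20629 in the Large White library, most of it miR-142-3p (8054 in the Enshi black, 2346 in the wild boar and 16873 in the Large White library). On library totals the sums were 12867 CPM in the Enshi black, 3859 in the wild boar and 15934 in the Large White library. miR-150 had a positive TMM-scaled log2 ratio of 0.18 in Enshi black over Large White, where the other three were negative. The leucocyte marker miR-223 had no entry under that name in the deposited counts and so was not analysed here. The red cell miRNAs miR-451, miR-144 and miR-486 summed to 4114 TMM-scaled CPM in the Enshi black, 3114 in the wild boar and 5324 in the Large White library. On library totals the red cell sums were 4944 CPM in the Enshi black, 3356 in the wild boar and 4112 in the Large White library, so that their order between Enshi black and Large White turned with the scale. Both sums were higher in the Enshi black than in the wild boar library on both scales, as miR-126-3p was. The red cell members did not all follow their sum. In Enshi black over wild boar, miR-486 had a TMM-scaled log2 ratio of −0.14, where miR-451 had 0.38 and miR-144 0.69. In Enshi black over Large White, miR-144 had −1.21, miR-451 −0.13 and miR-486 −0.15 after TMM. On library totals that pair had −0.57 for miR-144, 0.50 for miR-451 and 0.48 for miR-486. No marker of either list was at 0 in any library. miR-126-3p per leucocyte read was 3.08-fold higher in Enshi black and 6.57-fold higher in wild boar liver, relative to Large White, and per red cell read 2.07-fold and 1.95-fold. miR-126 is also found in platelets and blood progenitor cells in human, and the part of blood cells in these levels was not tested.

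**Figure D4:**
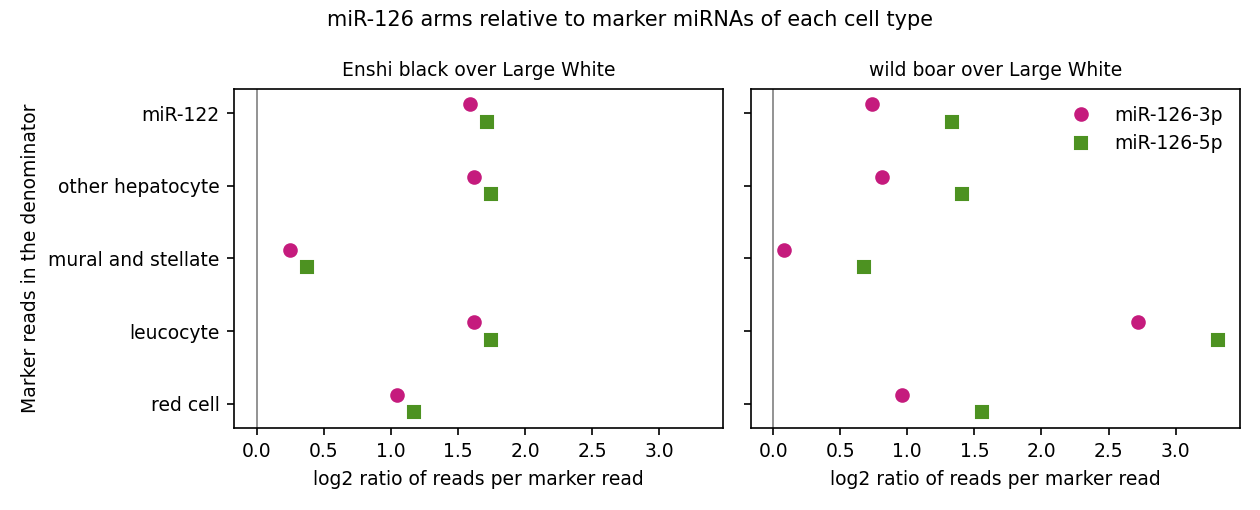
Log2 ratio, over Large White, of reads of miR-126-3p (circles) and miR-126-5p (squares) per read of each marker list (rows), for the Enshi black (left) and wild boar (right) libraries. Ratios of miR-126-3p are nearest 0 against the mural and stellate markers, at 0.25 and 0.08, and furthest from 0 against leucocyte markers in the wild boar library, at 2.72.

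Other miRNAs described in endothelium or in vessel growth, mostly in human, mouse and zebrafish, gave the setting for miR-126. A list of 17 such miRNAs was drawn up beside the 2 arms. It was chosen with earlier results of these data known, so its medians are a description and not independent support. Of the 17, 16 passed the minimum of 10 mean CPM. The exception was miR-132, at 87 reads in the Enshi black, 60 in the wild boar and 25 in the Large White library. With both arms, the 18 had a median TMM-scaled log2 ratio of 0.58 in Enshi black over Large White, against −0.04 over all 208 miRNAs. The median of the 16 without miR-126 was 0.52. Of those 16, 10 hold reads shared with other names, as miR-126 does not. In wild boar over Large White the median was 0.51 with or without miR-126, against −0.02 over all, and in Enshi black over wild boar it was 0.09 with or without miR-126, against −0.01.

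After TMM scaling, 1 of the 18, miR-10b, which promotes angiogenic sprouting in zebrafish, was called higher in Enshi black over Large White, at 1.09 on the log2 scale, and none was called lower, against 2.88% and 10.1% of all miRNAs. miR-10b, with 932 reads in the Enshi black and 268 in the Large White library, holds reads shared with other names. Nearest below miR-10b were miR-222, a repressor of the receptor KIT, at 0.88, miR-126-5p at 0.80 and miR-10a-5p, which dampens vascular inflammation, at 0.79. Next came miR-27a at 0.73 and miR-126-3p at 0.68. At the low end were miR-424-5p, induced by hypoxia in human endothelium, at 0.00, and miR-218, which represses Robo receptors of vascular patterning in mouse, at −0.80. On library totals 11 of the 18 were called higher and none lower, against 27.4% and 2.88% of all miRNAs.

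In the wild boar over the Large White library, miR-222 was at least 2-fold higher at 1.01 and miR-218 at least 2-fold lower at −1.11, where 11.5% of all miRNAs were called higher and 13.5% lower. miR-10b had 0.98, miR-92a, a repressor of angiogenesis in mouse, 0.84, miR-27b-3p 0.80, miR-126-5p 0.79 and miR-221-3p, the cluster partner of miR-222, 0.76. miR-126-3p at 0.19 lay below the list's median in this pair, with miR-24-3p at 0.23 and miR-10a-5p at 0.15 beside it. Of the 18, 15 had positive log2 ratios. Besides miR-218, the negative ones were miR-210 at −0.37 and miR-424-5p at −0.11. On library totals 7 of the 18 were called higher and none lower, against 21.6% and 9.13% of all miRNAs, and miR-218 then had −0.63. Between the Enshi black and wild boar libraries none of the 18 was past 2-fold after TMM, where 6.25% of all miRNAs were called in each direction. On library totals 1 was, miR-210, a hypoxia-induced miRNA, at 1.10, against 7.21% of all miRNAs called higher and 3.37% lower.

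**Figure D5:**
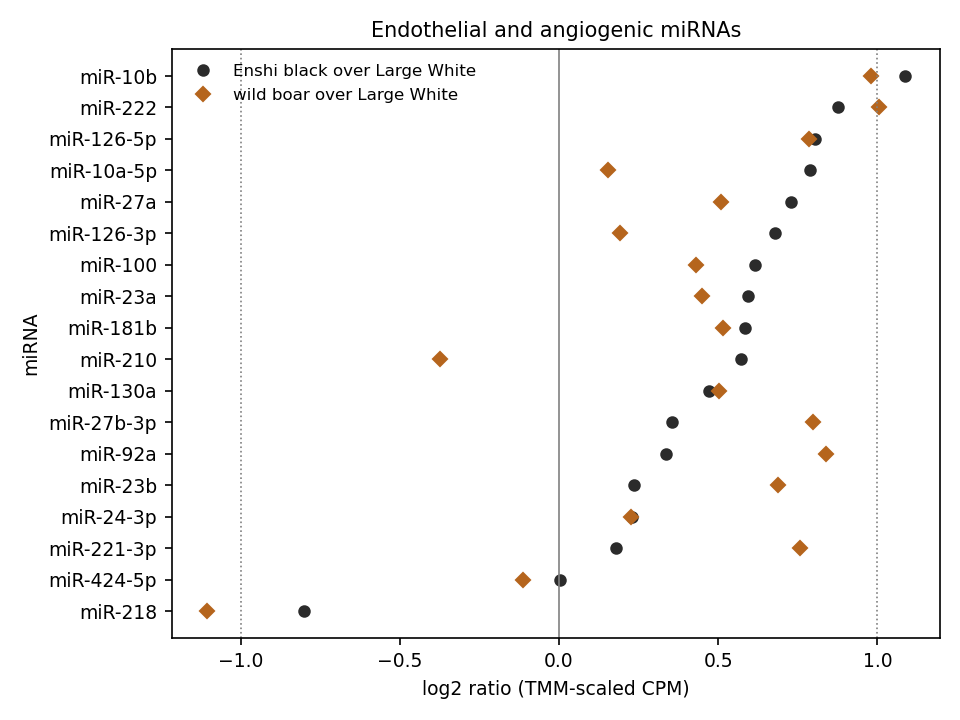
Log2 ratio of TMM-scaled CPM over Large White for 18 endothelial and angiogenic miRNAs, for the Enshi black (circles) and wild boar (diamonds) libraries; dotted lines mark 2-fold. The markers of miR-126-5p nearly coincide (0.80 and 0.79), while those of miR-126-3p are at 0.68 and 0.19.

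The arms of mir-126 did not have the same nearest profiles. Likeness was measured as the distance between log2 CPM over the 3 libraries after centring each miRNA, which no scaling changes, and 129 other miRNAs with at least 100 mean CPM were compared. Nearest to miR-126-3p were miR-10a-5p at a distance of 0.11, miR-130b at 0.12, miR-125a at 0.15, and the mural miR-143-3p and miR-199a-5p at 0.18 and 0.19, against a median of 0.69. Nearest to miR-126-5p were miR-95 at 0.03, miR-744 at 0.07, miR-139-5p at 0.10, miR-374a-5p at 0.15 and miR-222 at 0.16, against a median of 0.78. The arms were 0.44 apart, which made miR-126-5p the 29th nearest to miR-126-3p. A profile of 3 points holds little detail, and miR-10a-5p, miR-130b, miR-199a-5p and miR-374a-5p hold reads shared with other names.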

How the data were processed

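Liver small RNA of 14 to 40 nucleotides was sequenced as single-end reads of 50 bases, per the labels' protocols, in 1 library per breed. The submitters' processing notes name the build Sscrofa 10.2. The aligner and counter are not stated by any source used here. Expected counts were deposited per mature miRNA and precursor (75.7 to 78.8% of rows are exact whole numbers at the decimals given) with, by the authors' scaling, RPM, which were not used for comparisons.

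Counts were summed over precursors, 6 names that repeat another name's reads were left out, and sums were rounded. The minimum of 10 mean CPM used library totals and left 208 of 405 miRNAs. Of these, 65 hold shared reads, taken as a sum over 0.05 from a whole number in any library. TMM factors from edgeR 4.0.16 (R 4.3.3) were 1.20 for Enshi black, 1.08 for wild boar and 0.772 for Large White. A count of 0 would allow up to 0.323, 0.356 and 0.529 CPM (3 counts) in the same order. DESeq2 1.42.0 size factors, other minimums, thresholds, hepatocyte sums and thinned libraries were alternatives. The call rule was tested on simulated data that held counting error only, which cannot speak to the spread between animals.

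Members, lists and the naming rule (both arms, list members, 5 nearest profiles, neighbours in rank and in arm range) were chosen with earlier results of these data known. Reads carry no molecular identifiers. No miRNA sequence was used here.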

Additional observations from a re-analysis of the deposited data

How the results depend on the processing

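With 1 library a breed, leaving out a replicate could not be tried. No paired analysis was possible because each breed has 1 library and the labels carry no replicate numbers. The ratios of both arms over Large White, and of miR-126-3p in Enshi black over wild boar, stayed above 1 under every scaling tried. miR-126-5p in Enshi black over wild boar had an interval that held 1 with TMM and left it out under the other scalings. Thinning to the smallest total left each of the 6 arm ratios and the 3 shares within its counting interval. In Enshi black over Large White, miR-126-3p was 2.49 on library totals, 2.22 on totals without miR-122 and 1.69 with DESeq2 size factors, against 1.60 with TMM. miR-126-5p was 2.71, 2.42 and 1.84 in that order, against 1.74. In wild boar over Large White, miR-126-3p was 1.59, 1.54 and 1.18, against 1.14, and miR-126-5p 2.41, 2.33 and 1.79, against 1.72. In Enshi black over wild boar, miR-126-3p was 1.56, 1.44 and 1.43, against 1.40, and miR-126-5p 1.13 and 1.04 on the 2 kinds of total, against 1.01. A scaling moves all ratios of a pair by 1 constant.

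Counts of miRNAs past 2-fold in Enshi black over Large White were 63 on library totals (57 higher and 6 lower) and 45 on totals without miR-122, against 27 with TMM (6 higher and 21 lower). In wild boar over Large White library totals gave 45 higher and 19 lower, against 24 and 28, and in Enshi black over wild boar 15 and 7, against 13 and 13. With no filter on low counts the counts in the 3 pairs were 52, 85 and 50, at a mean of at least 100 CPM 13, 31 and 14, and at 4-fold 2, 9 and 3, against 27, 52 and 26. More or fewer miRNAs tested, or a stricter threshold, give more or fewer by construction.

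Per read of the hepatocyte list without miR-122, miR-126-3p was 3.08, 1.75 and 1.76 in the 3 pairs, and miR-126-5p 2.65 in wild boar over Large White and 1.27 in Enshi black over wild boar. With both arms of the mural miRNAs, an alternative chosen after seeing the data, miR-126-3p per mural read was 1.25, 1.09 and 1.15 in the 3 pairs, against 1.19, 1.06 and 1.12, and miR-126-5p 1.36 in Enshi black over Large White, against 1.30. The median of the endothelial list was 1.22, 0.99 and 0.24 on library totals, 0.65, 0.56 and 0.11 with DESeq2 size factors, and at a mean of at least 100 CPM 0.53 in Enshi black over Large White and 0.042 in Enshi black over wild boar. At a minimum of 1000 reads, 13 of 37 precursors had a wider range of 3p share than mir-126. At a minimum of 10 CPM, 2 of the 5 profiles nearest to miR-126-3p were the same, miR-10a-5p and miR-130b. There miR-139-3p, miR-10a-3p and miR-2320-5p took the places of miR-125a and the mural miR-143-3p and miR-199a-5p. Depth is no limit for either arm, while the spread between animals is unknown.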
